A study of Mus musculus with 5 samples.

Results

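Translation initiation and elongation factors were examined in SLAMseq libraries of mouse cardiac fibroblasts (CF). The members were taken by name, as every gene in the tables whose symbol begins with Eif and a digit or with Eef1 or Eef2. This gave 71 of 20365 genes, 56 named Eif and the others named Eef. The name rule uses no measured value, although the family was picked with earlier results of these data known. Each gene was followed on the 3′ interval where labeled libraries gave it most CPM on average, and 27 members had more than 1 distinct interval. The name rule also takes Eif1ad and the readthrough gene Eef1akmt4-ece2, which match by letters only, as well as the eIF2α kinases, the 4E-binding proteins and the methyltransferases of the elongation factors, which act on the factors.

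CF were isolated from hearts of healthy adult male C57Bl/6J wild-type mice by perfusion with collagenase. In the study's isolation method, CD31+ (endothelial) and CD45+ (immune) cells were then removed with magnetic beads, and the fibroblasts were grown to confluency. In the labeled group (n = 3) the cells were incubated for 12 h with 0.1 mM 4-thiouridine (S4U), which cells use in place of uridine when they make RNA. In the unlabeled group (n = 2) they were incubated in parallel without it, and RNA of both groups was alkylated, so that a T position holding S4U is sequenced as C. The 5 libraries cover 3′ ends of polyadenylated RNA. The study used separate CF preparations for SLAMseq, but neither its methods nor the labels say which preparation gave which library.

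Initiation factors bring the ribosome to the start codon. The eIF4F complex binds the cap and unwinds the leader, eIF3 holds the small subunit, eIF1, eIF1A and eIF5 control start codon choice, and eIF2 delivers the initiator tRNA and is recharged with GTP by eIF2B. Kinases of the α subunit of eIF2 slow this recharging during stress. In elongation, eEF1A brings charged tRNA to the ribosome, the α and δ subunits of eEF1B exchange its nucleotide, and eEF2 moves the ribosome along the mRNA. Many of these mRNAs are known as abundant, long-lived housekeeping transcripts in cultured cells.

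The tables held 506045 to 1843033 reads per library when each gene was counted on its 1 interval, and the members took 0.923 to 1.08% of them. The fibroblast markers Col1a1, Col1a2, Pdgfra, Dcn, Lum, Tcf21 and Postn had reads in every library and together 30360.8, 31386.5 and 33277.7 CPM in labeled and 23263.3 and 26841.5 CPM in unlabeled libraries. The summed level of 5 endothelial markers was 92.9 to 165 CPM in labeled and 133 to 187 CPM in unlabeled libraries, that of 5 immune markers 36.2 to 73.6 and 35.8 to 70.3 CPM, and that of 5 cardiomyocyte markers 0.634 to 7.53 and 2.17 to 8.03 CPM, with Myl2 at 0 throughout. The libraries numbered 1 of both groups stood apart. Over all genes read in a pair of libraries, chi-square per degree of freedom reached 16.6 between labeled replicate 1 and labeled replicate 2, 2.04 between labeled replicates 2 and 3, and 16.1 between the unlabeled libraries. Levels of the members that the results turn on are therefore given for each library.

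The first question was which members carried S4U after 12 h. The T>C rate is the number of T>C conversions divided by the covered T positions of the interval. It was higher in labeled than in unlabeled libraries for 66 of the 67 members with a covered T in every library (beta-binomial likelihood-ratio test, Benjamini-Hochberg adjusted p below 0.05 over all intervals), against 95.0% of 11179 genes, and lower for none (0 also at an unadjusted p below 0.05). The exception was Eef1akmt4-ece2, which overlaps Ece2 and had 3 to 15 reads per library (adjusted p = 0.159). The members Eef1akmt3, Eif4a3l1 and Eif4e1b had no read in any labeled library. Eif4e1b encodes the oocyte form of the cap-binding protein. For 22 of the tested members no conversion was counted for the T>C rate in the unlabeled libraries, which allows a rate of up to 2e-04 for Eif3h, the deepest of them, and up to 0.0156 for Eef1akmt4-ece2, the shallowest (3 conversions of the covered T positions, counting error only). For 4 of these 22, Eif1ad, Eif1b, Eif3k and Eif4ebp2, the tables nevertheless list converted reads in an unlabeled library, which for Eif4ebp2 were 16.9 and 3.64% of its reads.

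How the T>C rate differed among the members was then described in the 20 members with at least 1000 covered T positions in each labeled library. At this depth a single library fixes a rate only broadly. In labeled replicate 3, Eif4g3 had 40 conversions in 1017 covered T positions, a rate of 0.0393 with a 95% Wilson interval from 0.0290 to 0.0531 for counting error. These positions lay on 59 reads and are taken as independent, so the interval can be too narrow. The median rate of the 20 members was 0.0356, with library medians of 0.0355, 0.0350 and 0.0356, against 0.0388 in the 2123 genes covered as deeply. Of the 20 members 13 lay below the median of those genes and 7 above it. In the same libraries the median was 0.0232 for 28 genes of cytosolic ribosomal proteins and 0.0398 for 5 aminoacyl-tRNA synthetases, the enzymes that charge tRNA.

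**Figure D1:**
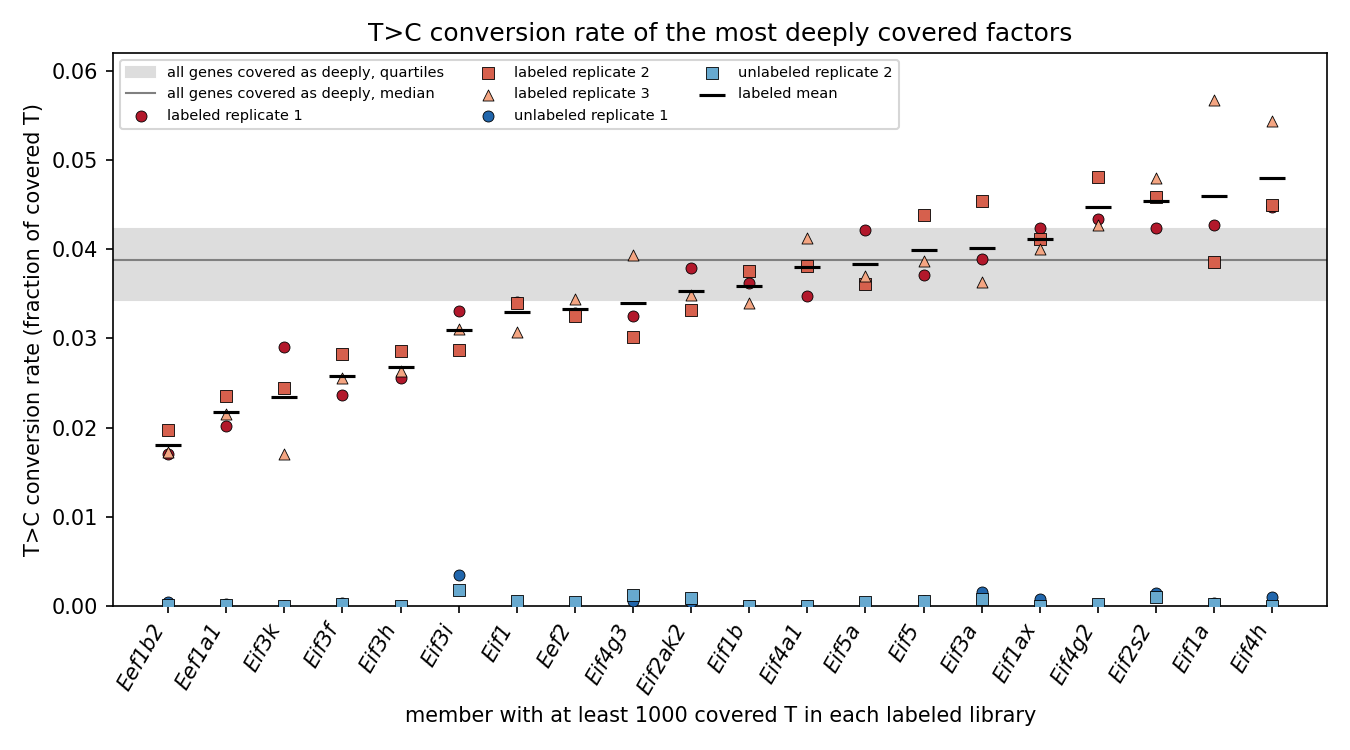
T>C conversion rate (fraction of covered T positions, vertical axis) of the 20 members with at least 1000 covered T positions in each labeled library, for the 3 labeled and 2 unlabeled libraries. Black bars are labeled means, and the grey band and line are the quartiles and median of the 2123 genes covered as deeply. Eef1b2, Eef1a1, Eif3k, Eif3f, Eif3h, Eif3i and Eif1 lie below the band, whose lower edge is 0.0343, in every labeled library, and the highest unlabeled value is 0.00350, for Eif3i.

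The lowest mean rates of the deeply covered members were those of Eef1b2 and Eef1a1, both of the eEF1 complex. Eef1b2 (ENSMUSG00000025967.18, chr1:63218772-63219645 in GRCm39, plus strand), the nucleotide exchange subunit eEF1Bα, had T>C rates of 0.0170, 0.0198 and 0.0172 in labeled replicates 1 to 3 and 0.000414 and 0.000151 in the unlabeled libraries. Its mean of 0.0180 ± 0.00153 (SD, n = 3) was at percentile 6.26 of the genes covered as deeply. Eef1a1 (ENSMUSG00000037742.16, chr9:78385735-78386015, minus strand), which encodes the tRNA carrier eEF1A1, had 0.0202, 0.0235 and 0.0215, a mean of 0.0218 ± 0.00168 at percentile 8.71. All 3 labeled values of both genes lay below those of every other member covered as deeply except Eif3k. Eef1a1 was also the most deeply covered member, with 57839 covered T positions in labeled replicate 1 and a 95% Wilson interval of 0.0191 to 0.0214 there. The interval takes T positions as independent, although they lay on 1961 reads, so it can be too narrow.

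Eef1g, the γ subunit, had 0.0243, 0.0372 and 0.0267 on a 78-base interval with at least 973 covered T positions. Eef1d, the δ subunit and also an exchange factor, had 0.0319, 0.0321 and 0.0308, so that the 3 libraries lay close together at a mean of 0.0316 ± 0.000702. Its value in labeled replicate 3 rested on 20 conversions in 649 covered T positions, a counting error that this SD does not show. Eef1e1, a small protein of the aminoacyl-tRNA synthetase complex named after the same family, stood at the other end with 0.0484, 0.0470 and 0.0541 (at least 610 covered T positions). Eef1a2, the form of eEF1A typical of muscle and neurons, had at least 46 covered T positions, too few to order its rate.

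Eef2 (ENSMUSG00000034994.12, chr10:81017917-81018343, plus strand), the translocase, had T>C rates of 0.0329, 0.0325 and 0.0344, a mean of 0.0332 ± 0.00100 at percentile 22.3. Each labeled value lay above every value of Eef1a1 and Eef1b2. Eef2k, the kinase that inhibits eEF2, had 0.0323, 0.0299 and 0.0278 at a lower coverage of at least 252 T positions. Among the methyltransferases that modify these factors, Eef1akmt4 had a mean rate of 0.0305 ± 0.00393 and Eef2kmt 0.0353 ± 0.00756, and the other 3 with reads were covered by fewer than 200 T positions in a labeled library.

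Of 14 eIF3 members 11 had at least 200 covered T positions in each labeled library, with a median rate of 0.0359. Of the 20 deeply covered members, 3 of the 5 lowest rates belonged to this complex. Eif3k, a peripheral subunit measured on an interval of 35 bases (chr7:28670797-28670831, minus strand), had 0.0290, 0.0244 and 0.0170, and its range was the widest of these. Eif3f and Eif3h, the MPN-domain subunits, had 0.0236, 0.0282 and 0.0255 for Eif3f, and 0.0256, 0.0285 and 0.0263 for Eif3h. The largest subunit Eif3a, which forms the scaffold, had 0.0389, 0.0454 and 0.0363 and the highest mean rate of the deeply covered eIF3 genes, 0.0402 ± 0.00468. The lowest labeled value of Eif3a lay above the highest of Eif3f, Eif3h and Eif3k. Eif3e reached a mean of 0.0439 ± 0.0104 at lower coverage (at least 900 T positions), but with a value of 0.0556 in labeled replicate 3 against 0.0354 in labeled replicate 2. The near-identical gene copies Eif3j1 and Eif3j2, between which reads cannot be placed with certainty, had at most 23 covered T positions in their shallowest labeled library.

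Start codon selection was covered throughout. Eif1, Eif1a, Eif1ax, Eif1b and Eif5 all passed 1000 covered T positions. Eif1 had 0.0341, 0.0340 and 0.0307 and the lowest mean of the 5, 0.0329 ± 0.00191. Eif5, which promotes GTP hydrolysis by eIF2, had 0.0371, 0.0438 and 0.0387. Eif1a had the highest mean, 0.0460 ± 0.00953, but its labeled values were 0.0427, 0.0386 and 0.0568, so the rank rested on labeled replicate 3. Eif1ax, its X-linked copy, had a narrow 0.0424, 0.0411 and 0.0400. Of the factors of subunit joining, Eif5b and Eif6, the mean rates were 0.0320 ± 0.00801 and 0.0386 ± 0.00908.

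Eif4h, of the helpers of eIF4F, had the highest mean rate of the 20 deeply covered members. Eif4h (chr5:134648726-134650362, minus strand), a stimulator of the helicase eIF4A, had 0.0448, 0.0450 and 0.0544, a mean of 0.0480 ± 0.00549 at percentile 97.2 of the genes covered as deeply. Without labeled replicate 3 its mean was 0.0449, below that of Eif4g2 with 0.0458. Without labeled replicate 2 it was 0.04957, just below that of Eif1a with 0.04971. Its first place was thus lost when either of these libraries was left out. Eif4g2, an eIF4G-like scaffold that lacks the binding site for eIF4E, had 0.0434, 0.0481 and 0.0427. With at least 11333 covered T positions it was the best measured of the members with high rates. Eif4g3 lay at the other end of this group with 0.0325, 0.0301 and 0.0393. The helicase Eif4a1 had 0.0347, 0.0381 and 0.0413, and the cap-binding protein Eif4e had 0.0522, 0.0431 and 0.0389 at a lower coverage of at least 668 T positions. The 4E-binding proteins, which compete with eIF4G for eIF4E, had mean rates of 0.0392 ± 0.00359 for Eif4ebp1, 0.0366 ± 0.00499 for Eif4ebp2 and 0.0399 ± 0.0169 for Eif4ebp3, closer together than the spread of the last one.

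**Figure D2:**
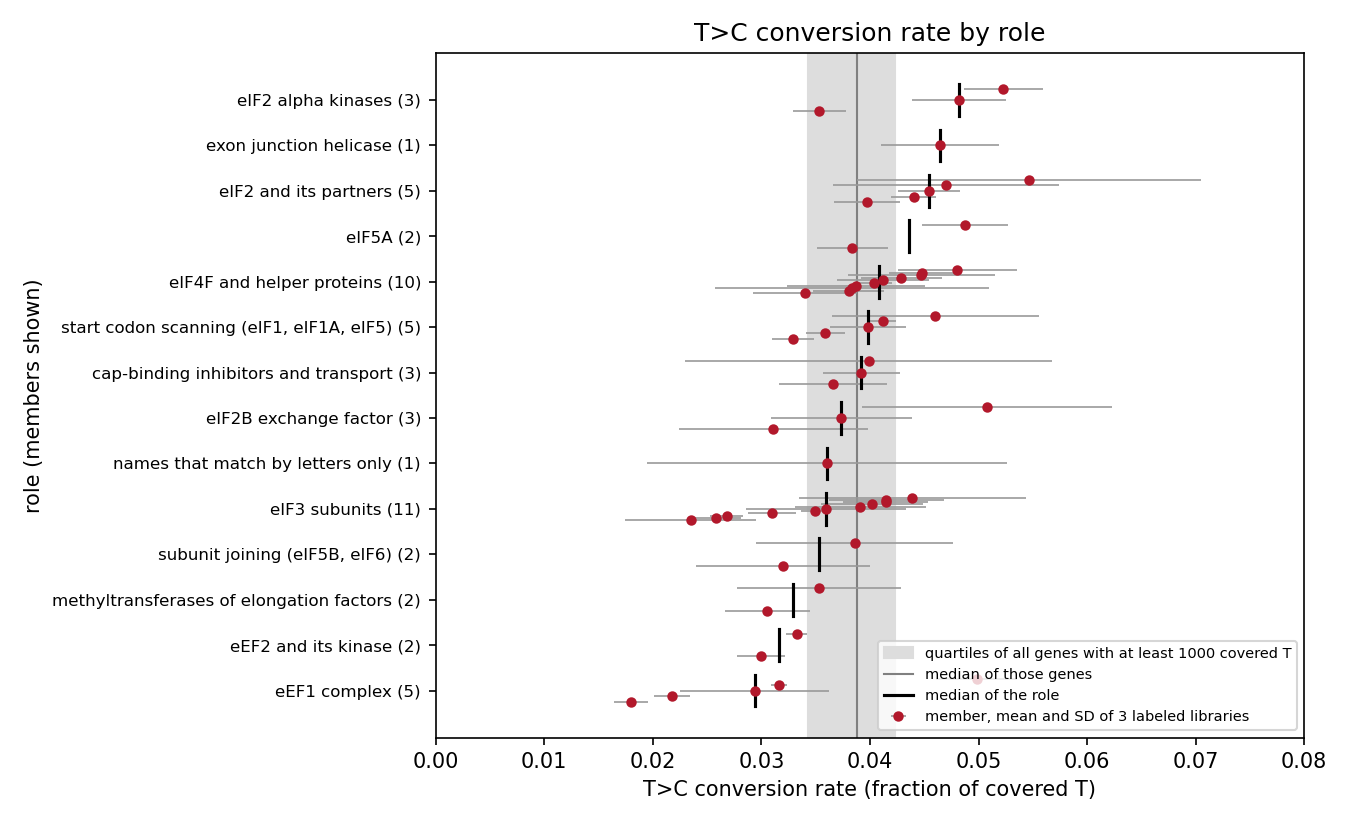
T>C conversion rate (horizontal axis, fraction of covered T positions) of the 55 members with at least 200 covered T positions in each labeled library, grouped by role. Points and error bars are the mean and SD of 3 labeled libraries, black lines the median of each role, and the grey band and line the quartiles and median of the 2123 deeply covered genes. The eEF1 complex, grouped together with Eef1e1, has the lowest median, 0.0294, and the eIF2α kinases the highest, 0.0482, while roles overlap and several hold 1 to 3 members.

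Eif2s2, the β subunit of eIF2, was the only gene of eIF2 and its partners above 1000 covered T positions and had 0.0423, 0.0459 and 0.0480, a mean of 0.0454 ± 0.00286. The α subunit Eif2s1 had 0.0453, 0.0452 and 0.0417. Eif2a, which despite its symbol encodes a separate initiator tRNA-binding protein, had 0.0448, 0.0462 and 0.0730, with the high value in the shallowest library. Of the eIF2α kinases, Eif2ak3 (PERK, activated by unfolded protein in the endoplasmic reticulum) had 0.0492, 0.0513 and 0.0563 and Eif2ak1 (HRI) 0.0532, 0.0458 and 0.0457, each higher in all 3 libraries than the interferon-induced Eif2ak2 (PKR) with 0.0379, 0.0331 and 0.0349. Eif2ak4 (GCN2, the sensor of uncharged tRNA) had 4 to 14 labeled reads and a spread of 0.0284 to 0.0526. In eIF2B, whose 5 subunits all had reads, Eif2b1 had a mean of 0.0508 ± 0.0115 and Eif2b2 0.0311 ± 0.00868. The other 3 had 53 to 330 covered T positions in the shallowest library.

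The percent of reads with at least 1 conversion also grows with the number of T positions in a read, and it gave a partly different order. Eif4g2 had the highest mean percent of the 20 members, with 66.2, 70.3 and 69.5% of its reads in labeled and 0.446 and 0.692% in unlabeled libraries. In labeled replicate 1 Eif4a1 was above it, and in labeled replicate 3 Eif1a. Eif3k had the lowest mean, with 27.8, 30.6 and 23.1% against 0.515 and 0.633%, while Eef1b2, with 25.6, 29.0 and 33.4%, was lower in labeled replicates 1 and 2. For Eef1a1 the values were 35.3, 38.7 and 36.6%, so that it ranked above Eef2, with 29.5, 37.1 and 35.3%, in each labeled library, although its T>C rate was lower. Eif4h, first by mean rate, had 54.7 ± 4.75% (SD, n = 3), below Eif4a1 with 64.7 ± 4.29%. Eef1b2, Eif3f, Eif3h and Eif3k had the 4 lowest means on this scale and were also among the 5 lowest by rate.

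Neighbours in the order of rates could mostly not be separated. Among the 20 deeply covered members the gap to the next mean was larger than the SD of both in 3 of 19 neighbouring pairs. The ends were separate, with no labeled value of the 5 lowest above 0.0290 and none of the 5 highest below 0.0386. Across the 20 members the rate had a Spearman correlation of 0.71 with the length of the interval, 0.35 with its share of T and -0.14 with the level. Over the 2123 genes the same values were 0.21, 0.32 and -0.21. These are descriptions across genes that share the same libraries, and genes are not independent replicates. The deeply covered eIF3 genes had a median interval of 168 bases and the ribosomal protein genes one of 149.5 bases, against 1513 bases in all 2123 genes, and the part of interval length in the rates was not tested.

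Paralogs were compared next within each library, since both genes then share the labeling and the library. Their coverage could still differ widely, as with 381 covered T positions for Eif4g1 and 22904 for Eif4g2 in labeled replicate 1. Of 15 pairs 13 had at least 200 covered T positions for both genes in each labeled library, and in 6 of these 1 gene was higher in all 3. With 3 libraries an exact two-sided sign-flip test cannot give a p below 0.25, so the order is described. Eef1b2 was lower than Eef1d, with differences of -0.0149, -0.0124 and -0.0136 and a mean of -0.0136 ± 0.00128 (SD, n = 3), the narrowest spread relative to its size among these 6 pairs. As percent of reads with a conversion the order of this pair was mixed, with 25.6, 29.0 and 33.4% for Eef1b2 against 27.9, 37.8 and 30.9% for Eef1d. Eif5a, the factor that carries hypusine, was lower than its rarer copy Eif5a2, with differences of -0.00276, -0.0124 and -0.0158. Eif1 was lower than Eif1b in each library, by a mean difference of -0.00297 ± 0.000772. By the percent of reads with a conversion this order turned in each labeled library. Eif1 then had 56.25, 50.7 and 51.4% against 43.7, 49.7 and 48.7% for Eif1b.

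Eif4b was below Eif4h and Eif4e above Eif4e2 in all 3 libraries, with mean differences of -0.00763 ± 0.00627 and 0.00354 ± 0.00300. The X-linked Eif2s3x, encoding the γ subunit of eIF2, exceeded its Y-linked copy Eif2s3y by 0.00397, 0.000269 and 0.0176, so that labeled replicate 2 hardly separated them. The other 7 pairs changed order between libraries. They include the helicases Eif4a1 and Eif4a2, with differences of 0.00210, -0.00722 and 0.00311, Eif4a1 and Eif4a3, the core of the exon junction complex, and Eif1a and Eif1ax. Reads of close copies can be split by the counting in ways the tables do not show. This also holds for Eef1a1, which has many processed pseudogenes.

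Levels were given as CPM of the reads counted on 1 interval per gene, since 3′ end libraries yield tags near the end of each transcript. The members had a median level of 73.6 CPM over the 68 with a read in every labeled library, against 30.7 CPM over 11420 genes. Without labeled replicate 1 the median of the members was 62.7 CPM. The 5 highest took 45.9% of the summed level of the members. Eef1a1 was first, with 1244, 1812 and 1828 CPM in labeled and 1616 and 2181 CPM in unlabeled libraries. Eef2 followed with 763, 1122 and 1035 against 1107 and 1136 CPM, and Eef1b2 had 1251, 696 and 739 against 1444 and 689 CPM. Eef1a1 exceeded Eef2 in all 5 libraries, while the order of Eef2 and Eef1b2 turned between the libraries numbered 1 and the others.

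The next were Eif4g2 with 504, 606 and 739 CPM in labeled and 609 and 726 CPM in unlabeled libraries, and Eif5 with 289, 271 and 277 against 334 and 312 CPM. Eif5 varied least of these, with a mean of 279 ± 8.98 CPM (SD, n = 3). Eif4h had 386, 210.0 and 182 CPM, Eif5a 151, 322 and 290.5 CPM, Eif3f 284, 238 and 227 CPM and Eif3i 322, 198 and 196 CPM in the labeled libraries. These ranges overlapped with each other and with that of Eif5. Of the 4 genes, Eif5a was lowest in labeled replicate 1 and the others were highest there. Per kb of interval, the order was Eef1a1, Eif3k, Eif3i, Eef1g and Eef2, because short intervals weigh more on this scale. By role, summed levels in labeled libraries were 2877 to 3005 CPM for the eEF1 complex, counted together with Eef1e1. They were 1512 to 1695 CPM for the 14 eIF3 genes and 1531 to 1620 CPM for eIF4F and its helpers. The 4 eIF2α kinases together reached 143 to 197 CPM and the 5 eIF2B genes 139 to 170 CPM.

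**Figure D3:**
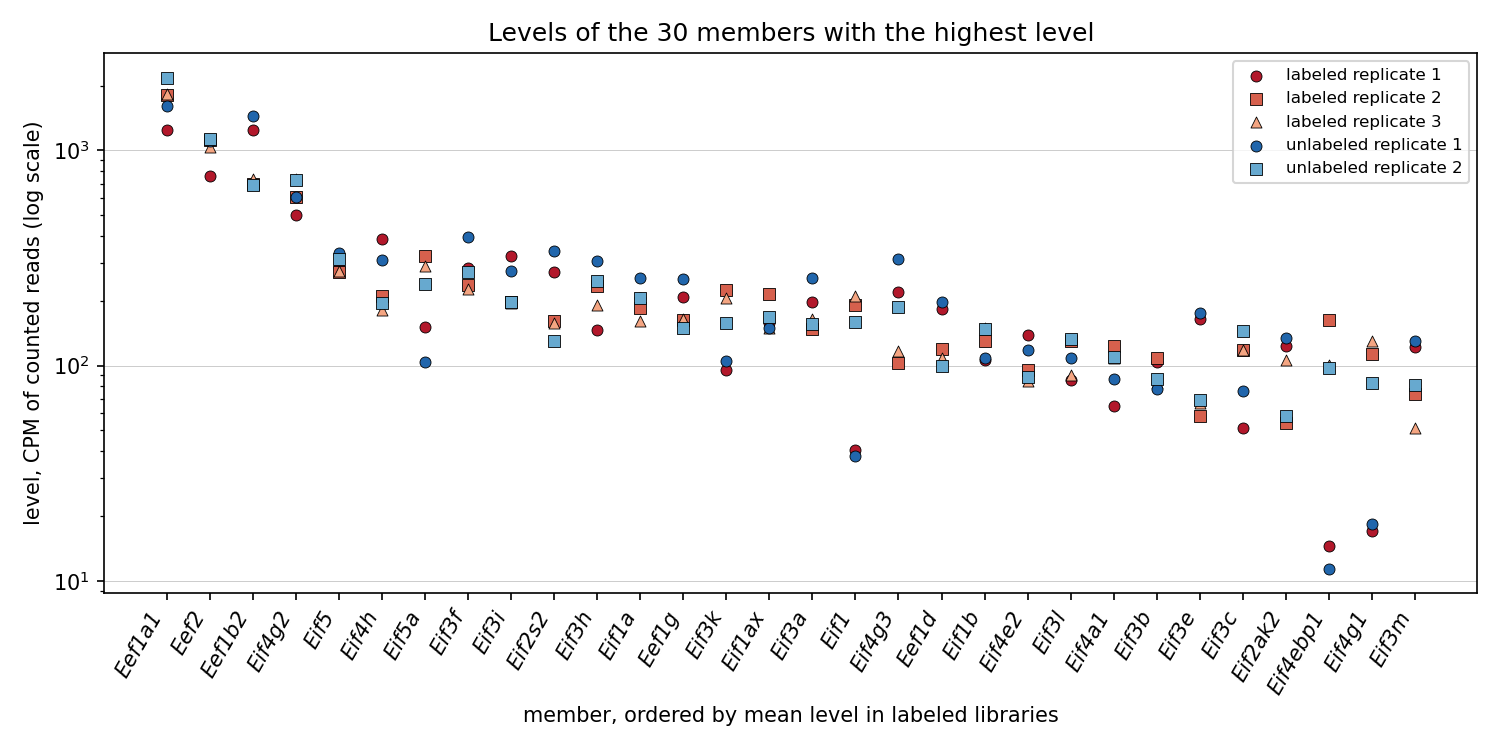
Level (CPM of counted reads, vertical axis, log scale) of the 30 members with the highest mean level, in the 3 labeled and 2 unlabeled libraries, ordered by the labeled mean. Eef1a1, Eef2, Eef1b2 and Eif4g2 stand above the rest, and the circles of both libraries numbered 1 fall far below the other symbols for Eif1, Eif4ebp1 and Eif4g1.

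Many members differed in the same direction in both libraries numbered 1. Of the 65 members with enough reads for the read test, 27 (41.5%) were lower in labeled replicate 1 than in both other labeled libraries and also lower in unlabeled replicate 1 than in unlabeled replicate 2, against 29.5% of 9807 genes. Another 26 (40%) were higher in both, against 39.9%. Across the 65 members the deviations of the 2 libraries had a Spearman correlation of 0.87, against 0.76 over the 9807 genes, a description in which all points share the same 5 libraries.

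Eif4ebp1 (chr8:27765140-27765684, plus strand), the best known 4E-binding protein, had 14.6, 163 and 101 CPM in labeled and 11.4 and 97.4 CPM in unlabeled libraries. It was thus 11.2-fold higher in labeled replicate 2 than in labeled replicate 1, and 8.55-fold higher in unlabeled replicate 2 than in unlabeled replicate 1. The cap-complex scaffold Eif4g1 showed the same order with 17.1, 113 and 130.4 against 18.4 and 83.3 CPM. Eif6, which keeps ribosomal subunits apart, had 19.0, 94.6 and 121 against 27.1 and 73.3 CPM, and Eif1 had 40.6, 192 and 211 against 38.0 and 159.6 CPM. In each of these 4 genes both libraries numbered 1 were below all others.

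The opposite order was seen in Eif3e, with 164, 58.6 and 67.2 CPM in labeled and 176 and 69.3 CPM in unlabeled libraries. Eef1b2 was 1.80-fold higher in labeled replicate 1 than in labeled replicate 2 and 2.10-fold higher in unlabeled replicate 1 than in unlabeled replicate 2. Eif2s2 and Eif4e behaved in the same way. The summed immune markers were also lower in both libraries numbered 1, at 36.2 and 35.8 CPM against 47.4 to 73.6 CPM in the others, and 4 of the 10 endothelial and immune markers, Pecam1, Tie1, Csf1r and Lyz2, were at their lowest there. Kdr was lower in replicate 1 within each group, while some markers went the other way, with Emcn higher in both libraries numbered 1 than in the others of its group and Cd68 at 20.08 CPM in unlabeled replicate 1 against 11.04 CPM in unlabeled replicate 2. The summed endothelial markers of labeled replicate 1, 95.8 CPM, lay above those of labeled replicate 3, 92.9 CPM. The summed cardiomyocyte markers were lower in both libraries numbered 1, at 0.634 and 2.17 CPM against 5.93 to 8.03 CPM in the others, with Tnnt2 at its lowest there. Pecam1 encodes CD31, an antigen used in the depletion. The part of these markers in the members' levels was not tested. In such bulk samples, fewer cells of a type and less RNA per cell cannot be told apart.

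**Figure D4:**
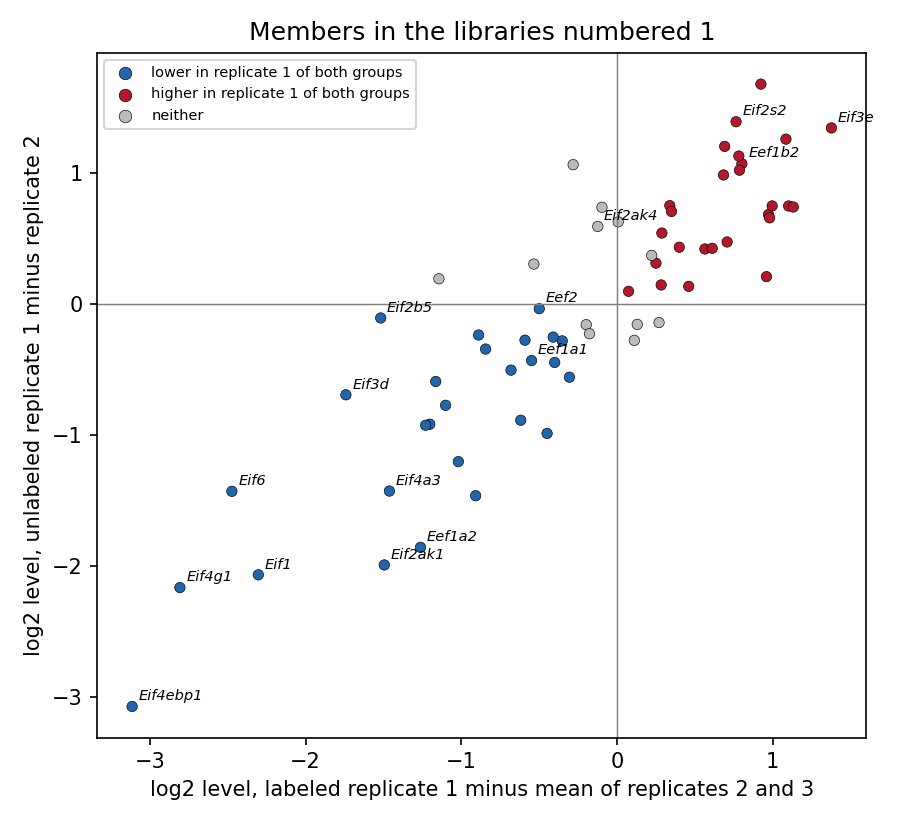
Difference in log2 level between labeled replicate 1 and the mean of labeled replicates 2 and 3 (horizontal axis) against that between unlabeled replicate 1 and unlabeled replicate 2 (vertical axis), for the 65 members in the read test. Colors mark the 27 members lower and the 26 higher in replicate 1 of both groups, and most points lie near a rising line with Eif4ebp1, Eif4g1, Eif6 and Eif1 at its lower end.

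Whether 12 h of S4U changed the read counts was tested on 9807 genes with edgeR's quasi-likelihood test. None of the 65 members tested passed an adjusted p below 0.05, nor did any other gene (0.00%). DESeq2 called 0 members as well. At an unadjusted p below 0.05 edgeR gave 1 member, against 5.97% of all genes. Of the members 31 had a log2 fold change above 0 and 34 below 0, with a median of -0.03 against 0.02 over all genes tested. Every labeled library lay above both unlabeled ones for 2 of the 65 members, Eif2b3 and Eif1ad, against 8.20% of the genes. Every labeled library lay below both for 3 members, Eif2ak4, Eif3h and Eif5, against 13.1%. A fit with the replicate number as a block leaves 1 residual degree of freedom. In it edgeR called 8 of the 65 members (12.3%), against 11.7% of the genes. Neither labels nor methods say whether a number marks a shared preparation, and this was not tested.

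Since no member passed in the fit without this block, the 5 with the smallest p in that fit are given. Eif2ak4 (chr2:118305542-118305715, plus strand, with Srp14 on the opposite strand) had 8.88, 10.9 and 7.90 CPM in labeled and 27.7 and 18.1 CPM in unlabeled libraries. Its log2 fold change was -1.22 ± 0.40 (SE), with an adjusted p of 0.725 by edgeR's test (unadjusted 0.0189). The groups did not overlap, but the labeled values rest on 14, 13 and 4 reads. Eif2b3 had 5.71, 15.9 and 9.88 against 4.88 and 4.02 CPM and a log2 fold change of 1.27 ± 0.64 (SE), from 4 to 19 reads per library. Summed over its intervals the log2 fold change was 0.77. The interval used is the one with the highest labeled level, which also enters this contrast.

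Eif4g3 had 219.5, 103 and 117 CPM against 314 and 187 CPM, with a log2 fold change of -0.69 ± 0.38 (SE), and its groups overlapped. Eif3h had 147, 234 and 192 against 305 and 247 CPM and a log2 fold change of -0.45 ± 0.28 (SE). Eif1ad, which is no translation factor, had 39.97, 37.66 and 35.57 against 24.96 and 30.12 CPM and a log2 fold change of 0.54 ± 0.31 (SE). The groups of Eif2b3, Eif3h and Eif1ad did not overlap, and the adjusted p of these 4 genes was 0.908 to 0.984 in edgeR's test. Single libraries moved some of these values by more than 1.5 times. Eif4g3 had a log2 fold change of -1.09 without labeled replicate 1 and -0.32 without unlabeled replicate 1. That of Eif3h was -0.28 without labeled replicate 1 and -0.16 without both libraries numbered 1. That of Eif1ad was 0.35 without unlabeled replicate 1. With the replicate block Eif4g3 had -0.60 ± 0.16 (SE) and an adjusted p of 0.00366 in edgeR's test. The adjusted p of that fit was 0.0106 for Eif3h and 0.0181 for Eif2ak4, but 0.154 for Eif2b3 and 0.137 for Eif1ad.

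Without both libraries numbered 1, a setting chosen after the data were seen, edgeR called 1 of 65 members, Eif2s3x, against 3.87% of 9620 genes. Eif2s3x had 80.6, 34.3 and 51.4 CPM in labeled and 49.4 and 15.1 CPM in unlabeled libraries, from 15 to 127 reads. Its log2 fold change was 1.46 ± 0.43 (SE) with an adjusted p of 0.0261 in that edgeR fit, in which the lone unlabeled library is assumed to vary like the labeled ones. With all 5 libraries it was 0.85 ± 0.55 (SE) and edgeR's adjusted p 0.985. With the replicate block it was 0.90 ± 0.23 (SE) and edgeR's adjusted p 0.00289. Its groups overlapped, as unlabeled replicate 1 lay between the labeled values.

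The summed share of the members in the counted reads was 0.923, 0.984 and 0.962% in labeled and 1.08 and 1.01% in unlabeled libraries. The groups did not overlap, with means of 0.956 ± 0.0312% (SD, n = 3) and 1.05 ± 0.0517% (SD, n = 2). The exact two-sided permutation test gave p = 0.1, which is the smallest it can give for 3 libraries against 2. Without Eef1a1, Eef2 and Eef1b2 the shares were 0.597, 0.621 and 0.602% against 0.668 and 0.611%, with an exact permutation p of 0.3, so the groups overlapped without these 3 genes. The summed level of the 7 fibroblast markers did not overlap between the groups either and was higher in labeled libraries, but its genes did not move as one. Col1a1 had 12755 to 13293 CPM against 8784 to 9659 CPM, Pdgfra was lower in labeled libraries with 516 to 525 CPM against 722 to 841 CPM, and the other 5 genes overlapped. The summed smooth muscle and pericyte markers, 13.4 to 27.7 CPM against 9.03 to 11.9 CPM, and the summed epicardial markers, 3.81 to 5.93 CPM against 0.543 to 1.00 CPM, were also higher in every labeled library. The former rested on Cnn1, with 14.6, 10.9 and 19.8 against 5.97 and 6.02 CPM. Rgs5 and Kcnj8 overlapped between the groups, and Myh11 had no labeled read. The latter rested on Wt1, with 6, 5 and 3 labeled reads against 1 in each unlabeled library, as Msln had no read and Upk3b 1 read. The part of these markers in the share of the members was not tested.

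**Figure D5:**
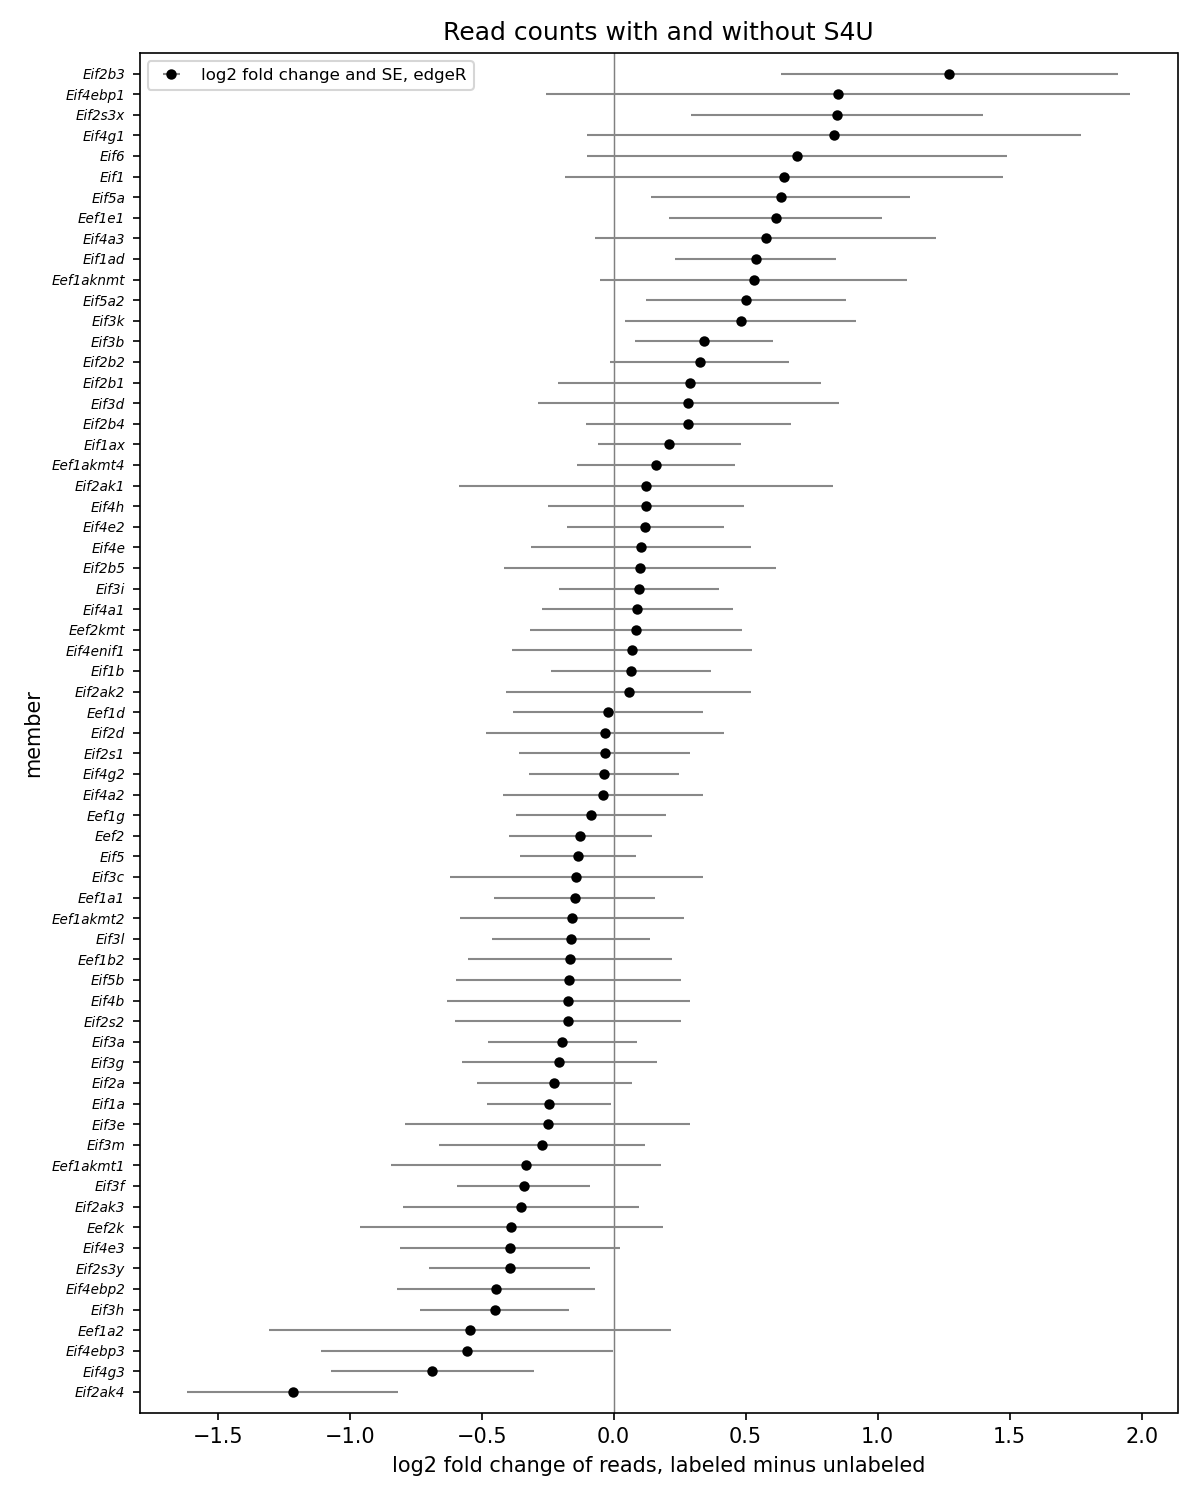
Log2 fold change of reads (labeled minus unlabeled, horizontal axis) of the 65 members tested, with the SE from edgeR as error bars. Most bars cross 0, and no member passes an adjusted p below 0.05 in this fit, which has no replicate block.

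Other genes of the pathway were counted on a list of 51 that holds termination and recycling factors, poly(A)-binding proteins, reinitiation factors, hypusine and diphthamide enzymes, mTOR signaling, eIF2α phosphatases and mitochondrial translation factors. The T>C rate was higher in labeled libraries for 50 of 50 tested, close to the 95.0% of all genes. Of 47 genes in edgeR's fit 0 passed an adjusted p below 0.05, against 0.00% of all genes, and 1 had an unadjusted p below 0.05, against 5.97%. This was Impact, an inhibitor of the kinase Eif2ak4, with 112, 108 and 96.8 CPM in labeled and 182 and 188 CPM in unlabeled libraries. Its log2 fold change was -0.73 ± 0.23 (SE), with an adjusted p of 0.725 in edgeR's test, and its groups did not overlap. With the replicate block, edgeR called 1 of the 47 genes higher and 2 lower, against 11.7% of all genes. Among the lower ones was Impact, with a log2 fold change of -0.69 and an adjusted p of 0.00102 in edgeR's test. At least 1000 covered T positions were reached by 11 of the 51 genes, with a median T>C rate of 0.0445 against 0.0356 in the 20 members. The release factors Etf1 and Gspt1 had mean rates of 0.0454 and 0.0445, and Atf4, whose mRNA is translated more when eIF2α is phosphorylated, had 0.0333.

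Many mRNAs of the translation machinery are known to begin with a C followed by an unbroken run of pyrimidines, through which mTOR controls their translation. The promoter windows of 4 members are shown because they hold the longest runs found near an annotated start among the members, 10 to 15 bases. Counting the annotated first base as 1, the runs begin at -5 in Eef1a1, -4 in Eif3f, -1 in Eif2s3x and 2 in Eif2s3y. None thus begins exactly at the annotated start, and whether the mRNAs begin with these runs was not tested. Sequences are from RefSeq in the build GRCm38.p6, on the coding strand, from 10 bases before to 20 bases from the annotated start, and capitals mark the run.
Eef1a1, chr9:78481705-78481734, minus strand: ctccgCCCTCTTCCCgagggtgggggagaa
Eif3f, chr7:108934405-108934434, plus strand: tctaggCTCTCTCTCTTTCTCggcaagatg
Eif2s3x, chrX:94212632-94212661, minus strand: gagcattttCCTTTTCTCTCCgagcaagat
Eif2s3y, chrY:1010585-1010614, plus strand: ggccacagccaCTTCCTTCTTTCgtgagca

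Of the 71 members 55 had such windows. The search took a C and at least 4 further C or T on the coding strand only, beginning within 5 bases of an annotated start. It found 15 members (27.3%), against 21.2% of 27025 genes in the table. The runs were found in genes of low and of high rate. Eef1a1 and Eif3f, shown above, had mean T>C rates of 0.0218 ± 0.00168 and 0.0258 ± 0.00231, while Eif2s3x and Eif2s3y had 0.0470 ± 0.0104 and 0.0397 ± 0.00305. The median rate was 0.0378 in the 12 members with a run and at least 200 covered T positions, and 0.0393 in the 32 without. A run farther from the annotated start was counted as absent, as in Eef2, whose window ends in ctctt. Runs of 5 bases, as in Eif1ad, were counted like the longest. These medians therefore cannot show how the rate relates to an mRNA that begins with such a run. Promoter windows were not matched for Eif3j2, Eif3h, Eif3e, Eif4e3, Eif1a, Eif2b3, Eef1d, Eif3i, Eef1akmt1, Eef1g, Eif4ebp1, Eif6, Eif4e1b, Eef1akmt3, Eif4ebp3 and Eif4g2.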

How the data were processed

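Per the labels and the methods, the authors extracted UMIs, mapped reads to mm39 with slamdunk 0.4.3, collapsed duplicates with umi-tools, and deposited counts per 3′ interval (reads, reads with a conversion, covered T positions, conversions), the conversion rate as a fraction, and CPM relative to a number of reads 7.58 to 28.9 times those counted on 1 interval per gene. Each deposited table held 97442 rows and 40428 distinct intervals. A row that recurred was kept a single time. The T content of 121 of 121 member intervals equalled GRCm39. Annotation was GENCODE M39 and 69 of 71 symbols matched. Of the 71 intervals used, 1 per member, 9 overlapped a gene on the same strand and 21 one on the other strand. The strand setting of the counting is not given in the sources used here.

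T>C rates were tested by a likelihood ratio of beta-binomial models (shared overdispersion, two-sided) on every interval where each library covered a T. For reads, edgeR 4.0.16 was used on 1 interval per gene (TMM, filterByExpr). Both used Benjamini-Hochberg adjustment. Tests were tried on simulated data. Python 3.11.15 (matplotlib 3.10.9, numba 0.67.0, pandas 2.3.3, scipy 1.17.1, numpy 2.4.6) and R 4.3.3 (DESeq2 1.42.0, limma 3.58.1) were run. The members, gene lists and paralog pairs were chosen with earlier results of these data known. Genes were named where they formed a covered paralog pair, had 1 of the 5 highest or 5 lowest rates, 1 of the 5 highest levels or 1 of the 5 smallest p-values of reads, or held the highest or lowest rate of a role. Other members named complete their role and were chosen after their values were seen. Alternatives were other coverage limits, unadjusted p, limma on log odds (pseudocount 0.5), other size factors and filters, DESeq2, a replicate block, sums over intervals, CPM as deposited or per kb, subtraction of the unlabeled rate, the percent of reads with any conversion, and leaving out 1 library at a time. Labeled and unlabeled samples were grouped by the submitters' labels.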

Additional observations from a re-analysis of the deposited data

How the results depend on the processing

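Results are limited by depth, as 16 of the 71 members had fewer than 200 covered T positions in a labeled library, by 2 unlabeled libraries, and by the libraries numbered 1. The count of members with a higher T>C rate was 65 to 66 under the alternatives, except where all 5 libraries had to cover 1000 T positions, when 20 of 20 remained testable and were called. With single libraries left out it was 65 to 66. The count of members with changed reads was 0 under DESeq2, other size factors, other filters, summed intervals and each single library left out, while over all genes edgeR called 0 and DESeq2 13 higher and 7 lower. It was 8 of 65 (12.3%) with the replicate block, against 11.7% of 9807 genes, and 1 without both libraries numbered 1. In the replicate block fit, which leaves 1 residual degree of freedom, edgeR called 4 members higher (Eef1e1, Eif2s3x, Eif5a and Eif4ebp1) and 4 lower (Eif2ak4, Eif3h, Eif4g3 and Eif4ebp3). Whether a number marks a shared preparation is not said in the labels or methods and was not tested, so the numbers were not taken as pairs, although the libraries numbered 1 deviated together. The median T>C rate of the members was 0.0387 with at least 200 covered T positions, 0.0332 with at least 3000, 0.0353 after subtraction of the unlabeled rate and 0.457 as the share of reads with a conversion. It was 0.0352 to 0.0362 with single labeled libraries left out. The median level was 5.6 in CPM as deposited and 120.5 per kb of interval, and 62.7 to 69.8 CPM with single labeled libraries left out. The number of paralog pairs with a fixed order was 6 after subtraction, 4 by the share of reads, 5 over summed intervals and 8 to 9 with single libraries left out, where 2 libraries instead of 3 must agree. By the share of reads the pairs were not all the same. Eif5a and Eif5a2, and Eif4e and Eif4e2, kept their order, that of Eif1 and Eif1b turned, and Eif4g1 and Eif4g2 gained a fixed order. The order of Eef1b2 and Eef1d, Eif4b and Eif4h, and Eif2s3x and Eif2s3y was then mixed. After subtraction of the unlabeled rate, the mean rate of 33 of 34 named genes moved by less than 1 SD, and that of Eef1d moved from 0.0316 to 0.0308. Log2 fold changes of the 5 genes with the smallest p of reads kept their direction in each alternative in which they were tested. Eif2b3 was not tested without labeled replicate 2 or 3, nor were Eif2ak4, Eif2b3 and Eif1ad with the filter of 50 reads. That of Eif2b3 was 0.77 over summed intervals. With the replicate block, edgeR's adjusted p was 0.00366 for Eif4g3 (log2 fold change -0.60), 0.0106 for Eif3h (-0.53) and 0.0181 for Eif2ak4 (-1.20). Among 47 other translation genes that fit called 1 higher, Pabpc4, and 2 lower, Impact (-0.69, adjusted p = 0.00102) and Pdcd4.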

Other observations

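Some members had reads on a second interval that does not overlap the one used. Eif2s3y had 48, 16 and 7 labeled and 43 and 4 unlabeled reads on chrY:1046772-1049136, with T>C rates of 0.0255, 0.0133 and 0.0405 in the labeled libraries, against 0.0362, 0.0416 and 0.0414 on the interval used. Both intervals carried conversions in each labeled library and none in the unlabeled ones. Eif4e2, a cap-binding protein that represses translation, had 79 and 25 reads in labeled replicates 1 and 2 on chr1:87165568-87168210, with rates of 0.0391 and 0.0332, against 0.0452 and 0.0417 on the interval used. Labeled replicate 3 had 5 reads there and the opposite order, with a rate of 0.0667 on 45 covered T positions against 0.0367. The unlabeled libraries had 141 and 34 reads there and no conversion.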
